A study of Caenorhabditis elegans with 6 samples.

Results

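The 8 *lipl* genes of *C. elegans* encode lipases of the lysosomal type, relatives of the acid lipase that cleaves triglycerides and cholesteryl esters in mammalian lysosomes. They were taken by gene name, *lipl-1* to *lipl-8*, as 8 of 20661 genes in the joined RNA-seq tables. RNA was sequenced from whole worms of mixed-stage cultures grown at 20 °C on *E. coli* OP50, with 2 replicates in each of 3 strains. Wild type (WT) is N2, *daf-2(-)* carries the *e1370* allele of the insulin/IGF-1 receptor gene *daf-2*, and *daf-16(-);daf-2(-)*, called the double mutant here, carries *e1370* together with *mgDf50*, a deletion in the FOXO gene *daf-16*. Both mutant strains therefore share the *daf-2* allele and differ in *daf-16*. The cultures held animals of all stages and tissues, so a difference in RNA level may come from RNA per cell or from the share of animals or cells of a type, and these cannot be told apart.

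Worms store fat as droplets mainly in the intestine. During fasting the transcription factor HLH-30, the worm homolog of TFEB, raises *lipl* transcription, and MXL-3 represses it when food is present. LIPL-4 is known for its link to lifespan, since its overexpression in the intestine prolongs life through a lipid messenger that LBP-8 carries from the lysosome to the nucleus, where the nuclear hormone receptors NHR-49 and NHR-80 act. DAF-16 is the main effector of lowered insulin/IGF-1 signalling (IIS).

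Levels are given as RPKM, the read density per kilobase of exon that the authors scaled to the mapped reads of each library, which allows comparison between genes. A gene was called when it changed at least 2-fold on the log2(RPKM + 1) scale with an unadjusted limma p of at most 0.05. Limma's p-values were also adjusted by the method of Benjamini and Hochberg over all 20661 genes. The added 1 RPKM shrinks the changes of low genes. Nothing in the labels says whether replicates came from separate cultures, so p-values measure only the spread between these libraries.

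As a check of the strains, the RPKM of *daf-16* lay between 22.4 and 29.4 in the 4 libraries with the intact gene and was 6.44 and 4.60 in the double mutant (log2 fold change -2.12 against WT, standard error 0.21, limma, adjusted p = 0.0397). From the steps between low values, each library was estimated to hold about 9500000 to 15480000 mapped reads. The shallowest was replicate 2 of *daf-2(-)*. The median log2 fold change of the 14395 genes that averaged 1 RPKM or more was -0.28 in *daf-2(-)* against WT, -0.34 against the double mutant, and 0.10 in the double mutant against WT. Median-ratio scaling moved these medians to -0.01, 0.03 and -0.02. The balance of all genes called turned with it. In *daf-2(-)* against WT, 999 genes were called higher and 1606 lower, and 1621 and 708 after that scaling. Against the double mutant, 1168 were higher and 3267 lower, and 2061 and 1573 after it. The shares of all genes given below are without that scaling.

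The family was led by 1 gene. In each of the 6 libraries *lipl-5* had the highest RPKM of the 8 and *lipl-2* the next. The RPKM of *lipl-5*, a lipase of the intestine, averaged 500.8 over the libraries, against 88.9 for *lipl-2*, 40.04 for *lipl-1* and 17.3 for *lipl-7*. The means of *lipl-6*, *lipl-3* and *lipl-4* were 4.12, 1.66 and 1.56, and that of *lipl-8* was 0.0867. *lipl-1* stood above *lipl-7* in both *daf-2(-)* libraries and in WT replicate 2, and below it in the other 3. *lipl-3* and *lipl-4* did not differ beyond their spread. By rank within a library, *lipl-5* stood between places 254 and 575 of 20661 genes.

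The summed RPKM of the 8 genes was 412 and 626 in WT, 1048 and 1164 in *daf-2(-)*, against 291 and 385 in the double mutant. The *daf-2(-)* libraries held the highest sums and the groups did not overlap. The sum follows *lipl-5*, which made up 82.0% and 81.5% of it in WT, 69.8% and 74.3% in *daf-2(-)*, against 83.6% and 82.1% in the double mutant. Without *lipl-5* the sum was 74.0 and 116 in WT, 316 and 299 in *daf-2(-)*, against 47.7 and 68.8 in the double mutant. The share of *lipl-1* lay between 1.59% and 4.05% in the WT and double mutant libraries and was 8.20% and 8.44% in *daf-2(-)*.

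**Figure D1:**
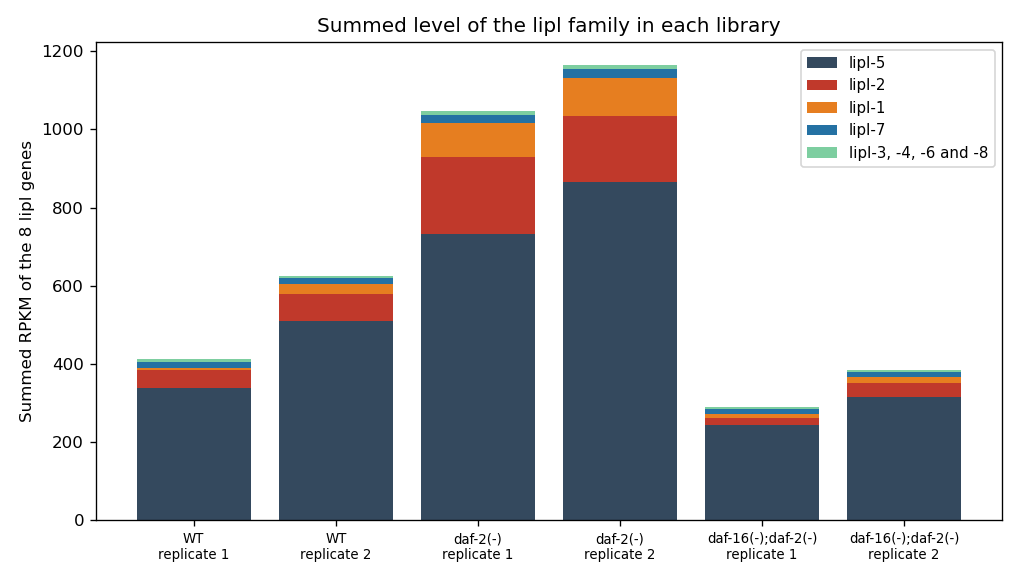
Summed RPKM of the 8 *lipl* genes in each of the 6 libraries, with the part of each gene stacked in colour (*lipl-3*, *lipl-4*, *lipl-6* and *lipl-8* together). The *daf-2(-)* libraries reach 1048 and 1164 RPKM, the other 4 lie between 291 and 626, and *lipl-5* fills most of every bar.

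The first comparison, *daf-2(-)* against WT, asks which genes differ when IIS is lowered. Of the 8 *lipl* genes, 4 rose (*lipl-1*, *lipl-2*, *lipl-3* and *lipl-4*), against 4.84% of all genes called higher. The same 4 passed at the adjusted p, against 4.54% of all genes. None was called lower (0 by limma, also 0 at an unadjusted p of at most 0.05 alone), against 7.77% of all genes, or 7.14% at the adjusted p. The median log2 fold change of the 8 was 1.06, beside -0.11 over all genes. In 7 of the 8 both *daf-2(-)* libraries lay above both WT libraries, a pattern found in 22.0% of all genes. The 7 include *lipl-8*, whose *daf-2(-)* values rest on about 2 and 4 reads. In *lipl-6* both lay below, as in 42.4% of all genes. The count of 4 was 2 without WT replicate 1 (*lipl-1* and *lipl-2*) and 2 without *daf-2(-)* replicate 2 (*lipl-2* and *lipl-4*).

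The second comparison, *daf-2(-)* against the double mutant, asks which differences depend on *daf-16*. Here 5 of the 8 were higher in *daf-2(-)* (*lipl-1* to *lipl-5*), against 5.65% of all genes called higher. All 5 passed at the adjusted p, against 5.46% of all genes. None was called lower (0 by limma, also 0 at an unadjusted p of at most 0.05 alone), against 15.8% of all genes, or 15.5% at the adjusted p. *lipl-1* to *lipl-4* were thus called higher than in both other strains, as 3.72% of all genes were. The median log2 fold change was 1.46, beside -0.15 over all genes. Again both *daf-2(-)* libraries lay above both double mutant libraries in 7 genes, *lipl-8* with its few reads among them, as in 19.9% of all genes. They lay below in *lipl-6*, as in 43.3%. Leaving out replicate 2 of *daf-2(-)*, or replicate 1 of the double mutant, gave 4, with *lipl-3* lost each time. As the 2 *daf-2(-)* libraries enter both comparisons, the counts are not independent.

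In the double mutant against WT, 1 of the 8 genes was called lower (*lipl-2*) and none higher (0 by limma, also 0 at an unadjusted p of at most 0.05 alone), against 0.736% and 1.42% of all genes. At the adjusted p 0 of the 8 were called, against 0.0387% of all genes lower and 0.116% higher, where 2 had an unadjusted p of at most 0.05 (*lipl-2* and *lipl-5*, both lower). The median log2 fold change was -0.18, beside 0.05 over all genes. Both double mutant libraries lay below both WT libraries in 4 genes (*lipl-2*, *lipl-4*, *lipl-5* and *lipl-7*), as in 15.9% of all genes.

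**Figure D2:**
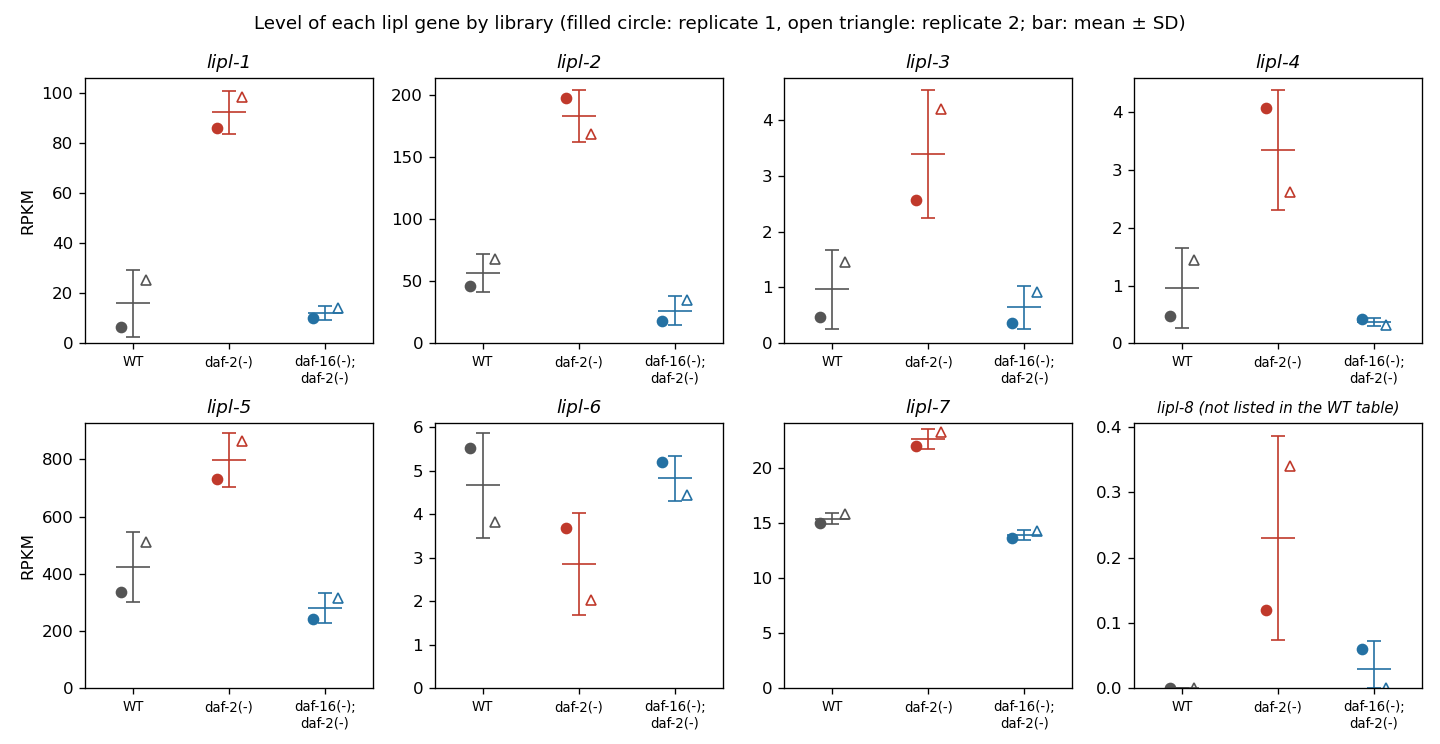
RPKM of each *lipl* gene in the 6 libraries, by strain, each panel with its own axis from 0; points are single libraries, and the horizontal bar and whiskers are the mean and SD of 2 replicates (the lower whisker stops at 0 for *lipl-8*). In 7 panels the *daf-2(-)* points lie above all other points, for *lipl-8* from about 2 and 4 reads, and in the *lipl-6* panel they lie below.

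The lipase gene *lipl-1* (WBGene00010062, F54F3.3), induced by fasting, had the largest change of the family against WT in the fit over the 6 libraries. Its RPKM was 6.56 and 25.4 in WT, 85.96 and 98.2 in *daf-2(-)*, against 10 and 14.14 in the double mutant. The mean was 92.1 ± 8.66 RPKM in *daf-2(-)* and 15.97 ± 13.31 in WT (SD, n = 2). Both *daf-2(-)* libraries were far above the other 4, and the WT replicates differed 3.87-fold, with the double mutant between them. The fitted log2 change was 2.72 against WT (standard error 0.52, limma, adjusted p = 0.0150), and relative to the double mutant it was 2.85 (standard error 0.52, limma, adjusted p = 0.00627), and by ratio of mean RPKM the gene was 5.77-fold and 7.63-fold higher. Against WT it was 1.82 without WT replicate 1 and 3.62 without WT replicate 2, and without *daf-2(-)* replicate 2 its unadjusted limma p was 0.0528 and the call was lost. The double mutant did not differ from WT beyond the error (-0.13, 95% interval -1.38 to 1.12), and its sign turned without WT replicate 2 (0.77) or double mutant replicate 1 (0.10). Without WT replicate 1 it was -1.03 and was called lower (limma unadjusted p = 0.0176, adjusted p = 0.474).

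The gene *lipl-2* (WBGene00009773, F46B6.8), another predicted lipase of the family, had an RPKM of 45.96 and 67.86 in WT, 198 and 169 in *daf-2(-)*, against 18.03 and 34.76 in the double mutant. The strains did not overlap, with *daf-2(-)* highest and the double mutant lowest. Its fitted log2 change was 1.69 against WT (standard error 0.32, limma, adjusted p = 0.0141), and relative to the double mutant it was 2.82 (standard error 0.32, limma, adjusted p = 0.00178), and the mean RPKM was 3.22-fold and 6.94-fold higher. Both calls held with each library left out in turn. In the double mutant the level was 0.464 of that in WT, or -1.12 on the log2 scale (standard error 0.32, limma unadjusted p = 0.00991, adjusted p = 0.187). That call was lost without WT replicate 2 (-0.85), double mutant replicate 1 (-0.67) or either *daf-2(-)* library (-1.12, limma adjusted p = 0.288 for both).

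The gene with the highest level, *lipl-5* (WBGene00022642, ZK6.7), had an RPKM of 338 and 510.3 in WT, 732 and 865 in *daf-2(-)*, against 243 and 317 in the double mutant. The mean was 798 ± 94.1 RPKM in *daf-2(-)*, 424 ± 122 in WT and 280 ± 51.7 in the double mutant (SD, n = 2). The 3 strains did not overlap. Against the double mutant its fitted log2 change was 1.52 (standard error 0.23, limma, adjusted p = 0.00357), a 2.85-fold higher mean. Against WT it was 0.94 (standard error 0.23, limma, adjusted p = 0.0297), a 1.88-fold higher mean, under the 2-fold criterion. It passed that criterion with median-ratio scaling (1.24) and without WT replicate 2 (1.23) or *daf-2(-)* replicate 1 (1.06). It was smaller after quantile normalization (0.51, limma adjusted p = 0.126), without WT replicate 1 (0.64, limma adjusted p = 0.174) and without *daf-2(-)* replicate 2 (0.82, limma adjusted p = 0.255). In the double mutant it was lower than in WT by a log2 fold change of -0.58 (standard error 0.23, limma unadjusted p = 0.0435, adjusted p = 0.247), which was not called.

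The weakly expressed *lipl-4* (WBGene00019376, K04A8.5), the lipase linked to lifespan, had an RPKM of 0.47 and 1.44 in WT, 4.07 and 2.61 in *daf-2(-)*, against 0.42 and 0.32 in the double mutant. The *daf-2(-)* values rest on about 94 and 41 reads, those of WT on about 12 and 32, and those of the double mutant on about 9 and 8. Both *daf-2(-)* libraries lay above the other 4. The fitted log2 change was 1.18 against WT (standard error 0.29, limma, adjusted p = 0.0293), and relative to the double mutant it was 1.64 (standard error 0.29, limma, adjusted p = 0.00561). By ratio of mean RPKM, which has no added 1, it was 3.50-fold and 9.03-fold higher. The change against WT was 0.81 without WT replicate 1 and 0.93 without *daf-2(-)* replicate 1, both under 2-fold. Both double mutant libraries lay below both WT libraries, with a difference of -0.47 (95% interval -1.16 to 0.23) that did not pass the test. In the WBcel235 annotation 7.26% of its exon length overlaps the non-coding gene K04A8.15 on the opposite strand and 4.96% a tRNA gene, also on the opposite strand, and whether reads were counted by strand is not given in the sources used here.

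The gene *lipl-3* (WBGene00020016, R11G11.14), like *lipl-1* induced by fasting, had an RPKM of 0.47 and 1.46 in WT, 2.57 and 4.19 in *daf-2(-)*, against 0.37 and 0.92 in the double mutant. These rest on about 10 and 28, 51 and 57, and 7 and 20 reads. Again both *daf-2(-)* libraries lay above the other 4. The fitted log2 change was 1.18 against WT (standard error 0.33, limma, adjusted p = 0.0414), and relative to the double mutant it was 1.41 (standard error 0.33, limma, adjusted p = 0.0160), and the mean RPKM was 3.50-fold and 5.24-fold higher. In the annotation 1.6% of its exon length overlaps *srw-107* on the same strand, a gene listed at 0 in 5 of the 6 libraries. Against WT the change was 0.81 without WT replicate 1 and 0.91 without *daf-2(-)* replicate 2, and against the double mutant its unadjusted limma p was 0.0706 with replicate 2 of *daf-2(-)* left out and 0.0656 with replicate 1 of the double mutant left out. The counting intervals of the WT replicates, 0.216 to 0.827 and 0.972 to 2.11 RPKM (exact Poisson, 95%), did not overlap, so by the estimated reads these replicates differed by more than counting error.

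The gene *lipl-7* (WBGene00008510, F01G10.7), the only member not on chromosome V in the WBcel235 annotation (it is on IV), had the smallest ratios between replicates of the 7 members listed in every strain. Its RPKM was 15.0 and 15.8 in WT, 21.9 and 23.2 in *daf-2(-)*, against 13.6 and 14.2 in the double mutant. No replicates of it differed by more than 1.06-fold, and the 3 strains did not overlap. Its fitted log2 change was 0.53 against WT (95% interval 0.15 to 0.90, limma, adjusted p = 0.0506), and relative to the double mutant it was 0.66 (95% interval 0.29 to 1.04, limma, adjusted p = 0.0170), both under 2-fold. The second became 1.07 after scaling by median ratios and 1.09 after quantile normalization, past 2-fold.

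The gene *lipl-6* (WBGene00021963, Y57E12B.3) was the only member with lower values in *daf-2(-)*. Its RPKM was 5.52 and 3.81 in WT, 3.69 and 2.03 in *daf-2(-)*, against 5.19 and 4.45 in the double mutant. The higher *daf-2(-)* library lay just under the lower WT library, and neither difference passed the test. The fitted log2 change was -0.57 against WT (95% interval -1.29 to 0.14, limma, adjusted p = 0.209), and relative to the double mutant it was -0.62 (95% interval -1.34 to 0.09, limma, adjusted p = 0.160). Relative to the median change of genes averaging 1 RPKM or more, both were -0.29.

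The last member, *lipl-8* (WBGene00013050, Y50E8A.7), was at the limit of detection. The WT table does not list it, which was taken as 0 in both replicates. Its RPKM was 0.12 and 0.34 in *daf-2(-)*, about 2 and 4 reads, against 0.06 and 0 in the double mutant, about 1 read and none. A count of 0 allows up to 3 reads, 0.160 and 0.186 RPKM in the WT libraries. The counting interval of the higher *daf-2(-)* value, 0.0949 to 0.892 RPKM (exact Poisson, 95%), includes these floors. Counting intervals and floors cover counting error only. The fitted log2 change was 0.29 against WT (95% interval 0.03 to 0.56, limma unadjusted p = 0.0338, adjusted p = 0.0946). Relative to the double mutant it was 0.25 (95% interval -0.01 to 0.51, limma adjusted p = 0.127). Neither was called, and both rest on these few reads.

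**Figure D3:**
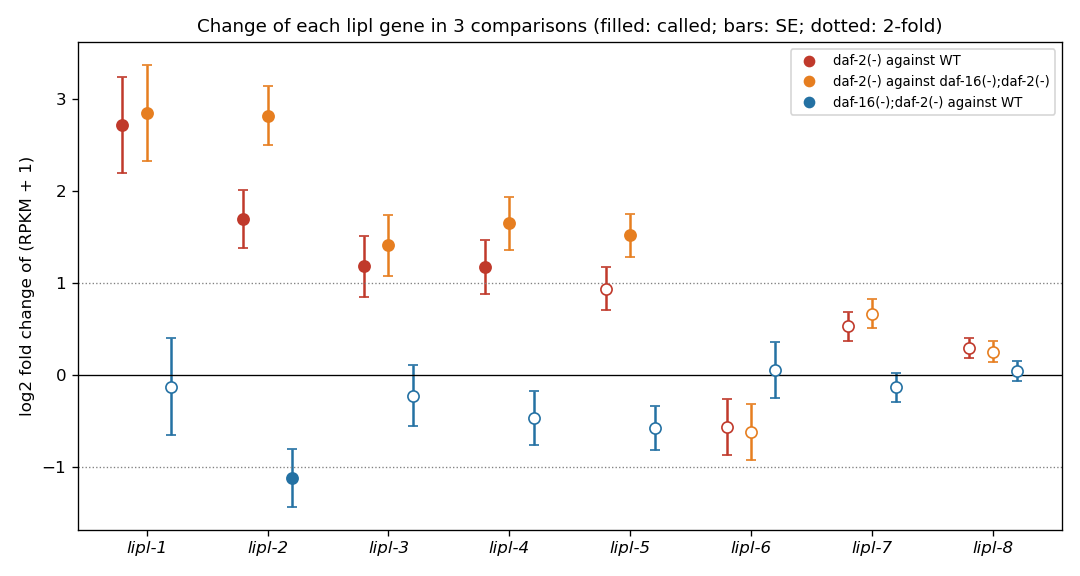
Log2 fold change of RPKM + 1 for each *lipl* gene in the 3 comparisons, with the SE as bars; filled points were called and the dotted lines mark 2-fold. The points of *daf-2(-)* against WT and against the double mutant lie above 0 for all members but *lipl-6*, and of the double mutant against WT only *lipl-2* (-1.12) is filled.

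Set against the median change of genes averaging 1 RPKM or more, the log2 fold changes in *daf-2(-)* against WT were 3.0 for *lipl-1*, 1.97 for *lipl-2*, 1.46 for *lipl-3*, 1.45 for *lipl-4*, 1.21 for *lipl-5* and 0.80 for *lipl-7*. Against the double mutant the same values were 3.18, 3.15, 1.74, 1.98, 1.85 and 1.0. Across the 6 libraries, the profiles of log2(RPKM + 1) of these 6 genes were alike, with Pearson's r between 0.874 and 0.977 over 15 pairs. Those of *lipl-6* ran the other way, with r between -0.951 and -0.712. All these points share libraries and strains, so the correlations describe the strain pattern and carry no test.

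The WT replicates differed across the family, with 6 of the 8 genes higher in replicate 2, *lipl-6* lower and *lipl-8* at 0 in both. The share of all genes higher in replicate 2 was not computed. Among genes averaging 1 RPKM or more, the median absolute log2 difference between WT replicates was 0.593 for *lipl* genes and 0.197 for all. In *daf-2(-)* these medians were 0.241 and 0.234, and in the double mutant 0.378 and 0.244. The 5 vitellogenin genes found of 6, which mark adult hermaphrodites with yolk, summed to 9169 RPKM in WT replicate 1 and 20960 in WT replicate 2. The sums were 11670 and 14210 in *daf-2(-)*, against 14110 and 12930 in the double mutant. The part of culture make-up in the *lipl* values was not tested.

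Other stage markers moved with the strains. Of 10 oocyte and embryo genes 9 fell in *daf-2(-)* against WT, with sums between 404 and 508 RPKM in *daf-2(-)*, 1139 and 1340 in WT, against 2021 and 2516 in the double mutant. Of 7 moulting genes 4 fell, with sums of 112 to 149 in *daf-2(-)* against 282 to 405 in WT and 273.4 to 392.4 in the double mutant. Of 4 dauer genes 3 rose (*col-40*, *col-2* and *cut-1*), with sums of 158 to 201 against 54.6 to 89.7 in WT and 32.5 to 43.9 in the double mutant. Of 10 sperm genes 0 were called in either direction by limma (3 higher with median-ratio scaling), and their sums were 394 to 474 in *daf-2(-)*, 271 to 318 in WT and 356 to 452 in the double mutant. Against WT, 7.77% of all genes were called lower and 4.84% higher in *daf-2(-)*. Relative to the double mutant, 10 of the 10 oocyte and embryo genes and 5 of the 7 moulting genes were lower. All 4 dauer genes were higher and 0 sperm genes were called, where 15.8% of all genes were lower and 5.65% higher. No gene of these lists was at 0 in every library of a strain, and their part in the *lipl* differences was not tested.

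Intestinal markers were mostly not called. The summed RPKM of 11 of them was 2116 and 2348 in *daf-2(-)*, 2119 and 2242 in WT, against 1647 and 2135 in the double mutant. Of the 11, only the carboxylesterase gene *ges-1* was called in *daf-2(-)* against WT (log2 fold change 1.84, limma, adjusted p = 0.00472). That is 9.09% of the list higher and 0% lower, against 4.84% and 7.77% of all genes. Relative to the double mutant 1 was called higher (9.09%) and 0 lower, against 5.65% and 15.8% of all genes. The changes that follow are against WT. The intestinal GATA factor gene *elt-2* had a log2 fold change of 0.21 (limma, adjusted p = 0.455). Below 0 were 6 of the 11, among them the peptide transporter gene *pept-1* (-0.65, limma adjusted p = 0.0144) and the acid phosphatase gene *pho-1* (-0.51, limma adjusted p = 0.0787), neither past 2-fold. Over the 11 the median was -0.14 relative to WT and 0.13 relative to the double mutant, where the *lipl* medians were 1.06 and 1.46.

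Among the regulators and messengers of lysosomal lipolysis, 1 of 10 genes was called higher in *daf-2(-)* against WT (10%) and 0 lower (limma), against 4.84% and 7.77% of all genes, with a median log2 fold change of 0.05. Relative to the double mutant 1 was higher and 1 lower, against 5.65% and 15.8% of all genes. The lower one was the nuclear hormone receptor gene *nhr-66* (-1.02, limma adjusted p = 0.00698), named after its value was seen, and no gene of the list was called lower after median-ratio scaling. The gene called higher in both comparisons was *lbp-8*, which encodes the lipid chaperone downstream of LIPL-4. Its RPKM was 17.6 and 19.5 in WT, 42.95 and 38.15 in *daf-2(-)*, against 10.95 and 16.58 in the double mutant, so the strains did not overlap. Its fitted log2 change was 1.09 against WT (standard error 0.22, limma, adjusted p = 0.0162), and relative to the double mutant it was 1.52 (standard error 0.22, limma, adjusted p = 0.00285).

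The 4 regulators named here were not called. The RPKM of *hlh-30*, the activator, lay between 24.8 and 29.0 in all 6 libraries, with a log2 fold change of 0.03 against WT (standard error 0.15). That of *mxl-3*, the repressor, was 149 and 137 in WT, 182 and 168 in *daf-2(-)*, against 158 and 132 in the double mutant, a fitted log2 change of 0.29 (standard error 0.14, limma, adjusted p = 0.177). For *nhr-49* the change was -0.02 (standard error 0.15), and for *nhr-80* it was 0.50 (standard error 0.21, limma, adjusted p = 0.133). Relative to the double mutant the changes were 0.05 for *hlh-30*, 0.27 for *mxl-3* and -0.15 for *nhr-49*. For *nhr-80* that change was 0.66 (standard error 0.21, limma, adjusted p = 0.0502), under 2-fold. RNA levels do not report the nuclear entry or activity of these factors.

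Other lipid-breakdown genes were mixed in direction. Of 7 genes for cytosolic lipases and their partners, 1 rose in *daf-2(-)* against WT and 0 fell (limma), 14.3% and 0% of the list, against 4.84% and 7.77% of all genes. The one that rose was C37H5.2 (*abhd-5.1*), a homolog of the mammalian lipase cofactor ABHD5, with RPKM of 2.09 and 3.67 in WT, 14.5 and 15.7 in *daf-2(-)*, against 2.30 and 1.73 in the double mutant. Its fitted log2 change was 2.08 against WT (standard error 0.28, limma, adjusted p = 0.00630), and relative to the double mutant it was 2.42 (standard error 0.28, limma, adjusted p = 0.00181). Relative to the double mutant 1 of the 7 was higher, C37H5.2, and 1 lower, C46C11.1 (*hosl-1*), a homolog of mammalian hormone-sensitive lipase that was named after its value was seen. The change of C46C11.1 was -1.07 in that comparison (limma adjusted p = 0.00901) and -0.99 against WT (limma adjusted p = 0.0206), just under 2-fold, and no gene of the list was called lower after median-ratio scaling. The triglyceride lipase gene *atgl-1* (C05D11.7) had a log2 fold change of 0.19 against WT (standard error 0.22) and -0.23 against the double mutant.

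Of the 15 *lips* genes found, which encode other lipases, 1 rose and 3 fell in *daf-2(-)* against WT, 6.67% and 20% of the list, against 4.84% and 7.77% of all genes. The gene that rose was *lips-15* (RPKM 8.90 and 10.6 in WT, 41.2 and 30.2 in *daf-2(-)*, log2 fold change 1.76, standard error 0.24, limma, adjusted p = 0.00643). The largest decrease was that of *lips-6* (37.97 and 16.15 in WT, 2.33 and 1.71 in *daf-2(-)*, log2 fold change -3.11, standard error 0.49, limma, adjusted p = 0.00957), followed by *lips-3* (-1.49). Relative to the double mutant 3 of the 15 were higher and 3 lower, 20% each, where 5.65% and 15.8% of all genes were, and with median-ratio scaling 3 were higher and 1 lower. Against WT the median of the 15 was 0.07, against 1.06 for the *lipl* genes.

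Of 40 genes for lysosomal proteins, 5 rose and 2 fell in *daf-2(-)* against WT, 12.5% and 5% of the list, against 4.84% and 7.77% of all genes, with a median log2 fold change of 0.15. The largest increases were those of *hex-1*, a hexosaminidase (44.4 and 93.9 RPKM in WT, 283 and 302.5 in *daf-2(-)*, against 30.8 and 29.6 for the double mutant), and *asm-2*, an acid sphingomyelinase. Their log2 fold changes were 2.16 (standard error 0.31, limma, adjusted p = 0.00796) and 1.84 (standard error 0.27, limma, adjusted p = 0.00829). The genes that fell were *gba-2*, a glucosylceramidase homolog (-1.78), and *vha-18*, a subunit of the proton pump that acidifies lysosomes (-1.43). Against the double mutant 6 of the 40 were higher and 4 lower, 15% and 10% of the list, where 5.65% and 15.8% of all genes were.

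**Figure D4:**
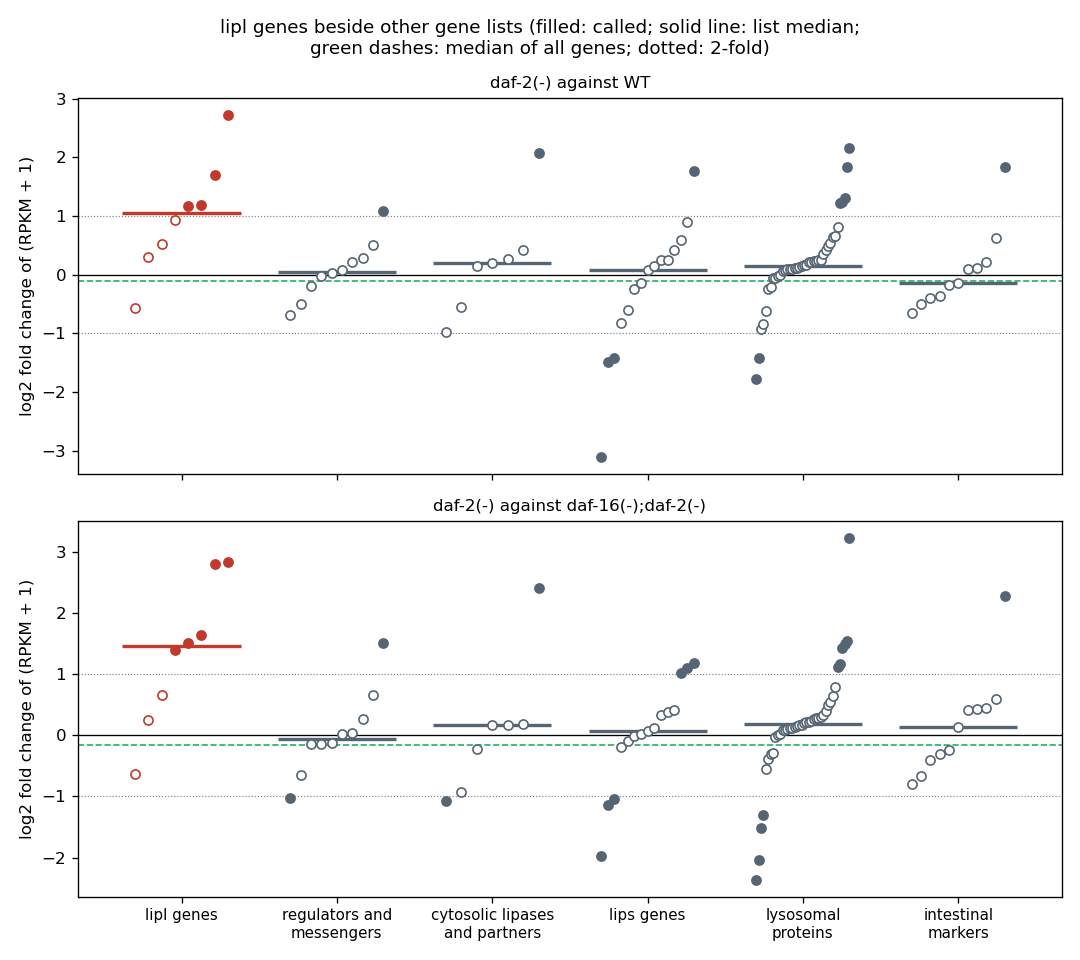
Log2 fold change of RPKM + 1 for every gene of the *lipl* family and of 5 other lists, in *daf-2(-)* against WT (top) and against the double mutant (bottom); filled points were called, the solid line is the median of each list and the green dashed line the median of all genes. The *lipl* medians of 1.06 and 1.46 lie above those of the 5 other lists shown, which lie between -0.14 and 0.19. The 4 dauer genes, not shown, had medians of 3.10 and 2.67.

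Genes outside the family followed the profiles of the called members closely in shape. Among 14388 genes averaging 1 RPKM or more, the most alike to *lipl-1* over the 6 libraries were *ttr-20*, the lysozyme gene *lys-7* and C05D2.8 (Pearson's r 0.999, 0.999 and 0.998). To *lipl-2* they were R09A1.3, F13G3.12 and *ttr-5* (0.9997, 0.9995 and 0.9993). To *lipl-5* they were the aspartyl protease gene *asp-6*, C50F4.9 and *col-116* (0.999, 0.999 and 0.999). To *lipl-3* they were F25E2.2, K08D8.5 and M162.5 (0.999, 0.992 and 0.992), and to *lipl-4* Y75B8A.32, F48G7.13 and *amph-1* (0.997, 0.996 and 0.996). These are the highest values among many genes over only 6 libraries of 3 strains. At the looser limit of 0.95, between 311 and 641 of the 14388 genes were as alike to each of these 5 members. The r does not measure the size of a change. In *daf-2(-)* against WT, the log2 fold changes of the genes named here ran from 0.21 (*amph-1*) to 3.71 (*lys-7*).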

How the data were processed

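The authors prepared TruSeq libraries from total RNA, trimmed adaptors, mapped reads with CLC Genomics Workbench to WS230 and deposited RPKM per gene for each replicate, in 1 table per strain. How reads matching several genes were handled is not given in the sources used here, so reads may be shared within the *lipl* family. The *daf-2(-)* table was read as RPKM after its comma separators were removed.

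The 3 tables were joined by name, with 0 for a gene that a strain's table does not list, and 6 names on several lines were left out. The 20661 genes were fitted over all 6 libraries on log2(RPKM + 1) with the limma package, version 3.58.1, in R 4.3.3, letting the spread follow mean expression. The authors used Baggerly's test, with the same limits on p and fold. The fit was also run on simulated data drawn from its own gene means and spread. These data do not cover counting error or differences in culture make-up.

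Mapped reads per library were estimated as the number at which values of up to 6 reads in single-transcript genes fell on whole multiples of 1 read (within 0.1), using exon lengths of WBcel235, another build than WS230. Between 45.6% and 49.1% of these values did. Reads per gene are therefore approximate, and no coordinates are given. Older names were matched through RefSeq sequence names.

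All 8 members are named. Named from other lists are *hlh-30*, *mxl-3*, *nhr-49*, *nhr-80*, *lbp-8*, *atgl-1* and, of 3 lists, up to 2 called genes in each direction with a mean RPKM of at least 1. *ges-1*, *elt-2*, *pept-1*, *pho-1*, *nhr-66*, *hosl-1* and the dauer genes were named after their values were seen. Members and lists were chosen with earlier results of these data known. Alternatives were other pseudocounts, a filter, 2 scalings, limma without the trend, separate fits, a replicate block, adjusted p, the ratio of means and each library left out.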

Additional observations from a re-analysis of the deposited data

How the results depend on the processing

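The counts of *lipl* genes called were recomputed under 15 alternatives. Higher in *daf-2(-)* than in WT were between 2 and 5 genes with each library left out in turn and 4 or 5 otherwise, and higher than in the double mutant 4 to 5 and 5 to 6. Lower in the double mutant than in WT were 0 to 2 with a library left out, and 0 with every pair of strains fitted alone or at the adjusted p, where 1 was called. Leaving out a library leaves 1 sample in an arm, which is assumed to vary like the others. Directions reversed only in the double mutant against WT. With a library left out, *lipl-1* ranged from -1.03 to 0.77, *lipl-3* from -0.60 to 0.14 and *lipl-6* from -0.17 to 0.27. Without WT replicate 2 they were 0.77, 0.14 and -0.17, and without double mutant replicate 1 they were 0.10, 0.01 and -0.04. With median-ratio scaling and quantile normalization *lipl-6* was at -0.052 and -0.0012. The causes were not tested. With the replicate number as a block, 4 and 5 *lipl* genes were higher in *daf-2(-)* and 1 was lower in the double mutant. Of all genes 1003, 1173 and 158 were. Same-numbered replicates did not deviate together in all pairs of strains (r = 0.109, 0.158 and -0.163). Each strain gives a single replicate difference, so these values cannot decide whether the numbers pair the samples. With a pseudocount of 0.1 RPKM *lipl-8* was called, at 1.64 and 1.30, from 2 and 4 reads.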

Other observations

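The protein-coding genes next to each *lipl* gene in the WBcel235 annotation were looked at after the results were known, and 12 of 16 stand in the tables under their name. Next to *lipl-6*, which was not called, Y57E12B.10 rose in *daf-2(-)* against WT by a log2 fold change of 2.41 (standard error 0.27, limma, adjusted p = 0.00415). Next to *lipl-2*, which rose, F46B6.9 fell by 1.46 (standard error 0.43, limma, adjusted p = 0.0460). The other 10 were not called in this comparison. Of all genes 4.84% were called higher and 7.77% lower. Among the 10, only *tkt-1*, next to *lipl-7*, had an adjusted limma p of at most 0.05 (0.0240). Its log2 fold change of 0.53 was under 2-fold.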
